A study of Mus musculus with 4 samples.

Results

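Embryonic day 14 (E14) of mouse molar development was compared with embryonic day 12 (E12), days over which the lower molar goes from an epithelial bud to a cap. The comparison takes 2 of the 4 arrays of the series, the one labelled embryonic day 12 and the one labelled embryonic day 14, with 1 array per stage. Both arrays carry total RNA of mandibular molar tooth germs from untreated ICR embryos, an outbred laboratory stock; no mutant, transgene or agent is named for any sample. The sources used here do not say how many germs were pooled for an array or whether epithelium and mesenchyme were separated, and an array holds no record of tissue shape, so bud and cap are background to the ages. The E11 and E16 arrays, 1 each, are given beside the results for the level on either side.

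MicroRNAs (miRNAs) are short RNAs that guide silencing proteins to messenger RNAs, chiefly by pairing of the seed, bases 2 to 8 from the 5′ end. A precursor hairpin gives 2 arms, and on these arrays the arm once thought minor carries an asterisk. In the tooth, the bud epithelium folds around condensing mesenchyme and a signalling centre, the primary enamel knot, forms as the cap takes shape; miRNAs of the miR-200 group and miR-205 are known from epithelium, and miR-199a and miR-214 from mesenchyme.

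The signal of a miRNA is the deposited total gene signal, an intensity in arbitrary units, and ± is its stated error on that array, not a spread between embryos. The level is the log2 signal minus the log2 of its array's 75th percentile, taken over the 197 miRNAs detected on all 4 arrays (397.5 at E12 and 528.1 at E14). A difference is the E14 level minus the E12 level, on the log2 scale, with both errors combined. A miRNA is called higher or lower where it was detected on both arrays and differed by at least 2-fold. That is a rule of size: with 1 array per stage there is no test, and no p-value is given. The entries named miR-2132 to miR-2146 and miR-689 were read apart. They are left out of every count unless named, except the 197 above and the number of probes detected per array.

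The arrays detected 221 of 696 miRNA probes at E12 and 249 at E14. Outside the 13 entries read apart, 201 miRNAs were detected at both stages. Of these, 17 were at least 2-fold higher at E14 (8.46%) and 32 at least 2-fold lower (15.9%), with 152 between. The median difference of the 201 was -0.44, so every difference is read beside it; on the deposited signals with no scaling it was -0.03. There 25 miRNAs were higher (12.4%) and 9 lower (4.48%). The entries read apart moved the percentile itself: taken without them, it placed the median at -0.02 and again left 25 higher and 9 lower. Under each of 9 scalings, 2-fold was passed by all 17 of the former and by 9 of the latter 32. The alternatives shifted differences by a median of -0.01 to 0.42, mostly upward, which favours higher calls and counts against lower ones. These counts thus do not compare how firm the higher and lower calls are. Of the 9 scalings, quantile normalization and the authors' value table gave the same values to within 0.1%.

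**Figure D1:**
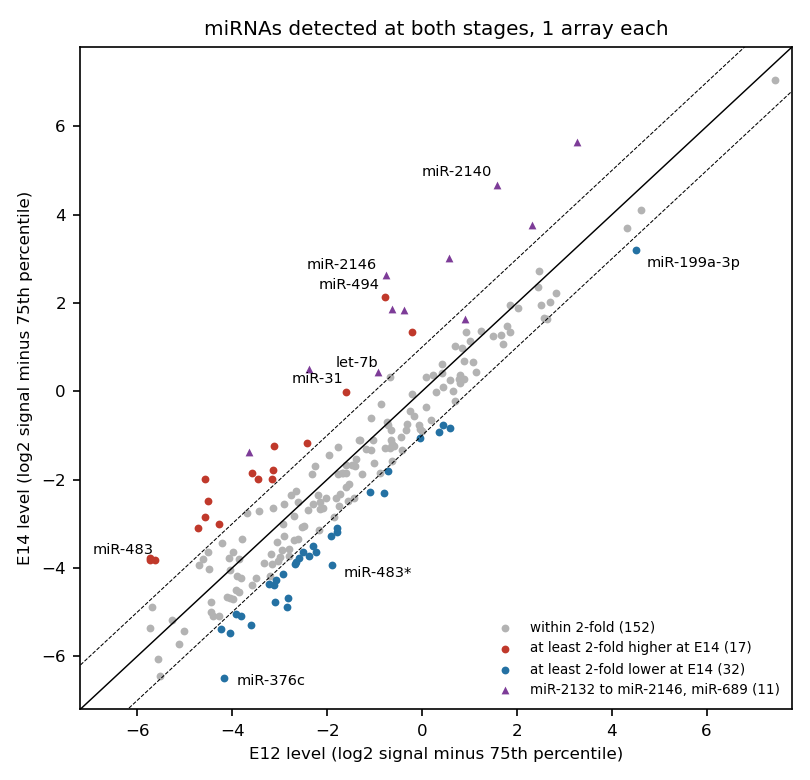
Level at E12 (x axis) against level at E14 (y axis), both as log2 signal minus the array's 75th percentile, for miRNAs detected on both arrays; each point is 1 miRNA on 1 array per stage, the solid line marks equal levels and the dashed lines 2-fold. The 17 higher miRNAs (red) lie above the upper dashed line, the 32 lower ones (blue) below the lower, and 10 of the 11 detected entries read apart (purple triangles) above it, among them miR-2146 and miR-2140.

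The sequences of the miRNAs on which the comparison turns are shown here, from RefSeq (GRCm38.p6), with the seed in capitals. Of 247 miRNAs detected at either stage, 187 were matched to a sequence by name and arm. The first set holds miRNAs higher at E14, with let-7b, which lay just below 2-fold.
miR-31: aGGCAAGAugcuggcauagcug
miR-31*: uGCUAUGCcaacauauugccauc
miR-34a: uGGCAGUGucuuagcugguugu
let-7b: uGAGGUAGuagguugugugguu
miR-494: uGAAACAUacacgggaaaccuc
miR-1187: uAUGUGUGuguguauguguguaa
miR-574-5p: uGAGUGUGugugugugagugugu
miR-1224: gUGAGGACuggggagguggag
The second set holds miRNAs lower at E14, of the Dlk1-Dio3 cluster first and then of families that share a seed, with miR-19b, which lay within 2-fold, beside miR-19a.
miR-369-5p: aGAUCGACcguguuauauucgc
miR-411*: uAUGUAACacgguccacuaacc
miR-543: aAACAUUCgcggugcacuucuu
miR-495: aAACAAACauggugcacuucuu
miR-376a: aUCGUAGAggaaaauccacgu
miR-376b: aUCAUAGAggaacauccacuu
miR-130b: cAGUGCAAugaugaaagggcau
miR-301a: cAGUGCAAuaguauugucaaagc
miR-19a: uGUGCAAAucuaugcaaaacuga
miR-19b: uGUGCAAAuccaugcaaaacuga
The third set holds 2 precursors whose arms went opposite ways.
miR-483: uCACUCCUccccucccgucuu
miR-483*: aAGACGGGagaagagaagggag
miR-125a-3p: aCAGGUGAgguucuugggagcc
miR-125a-5p: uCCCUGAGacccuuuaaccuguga

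Both arms of the miR-31 precursor, which is known from epithelia and lies on chromosome 4 (chr4:88910614-88910635, minus strand, for the 5′ arm), were higher at E14. The miR-31 signal was 16.2 ± 3.8 at E11, 130.2 ± 11.4 at E12, 525.2 ± 38.3 at E14 and 1257 ± 92 at E16. Its level was 3.04-fold higher at E14 than at E12 (1.60 ± 0.16), and the signals stood in the order of the stages. miR-31* was not detected at E11 and had 45.0 ± 7.2 at E12, 154.5 ± 12.1 at E14 and 439.4 ± 32.1 at E16, a difference of 1.37 ± 0.26 from E12 to E14. The arms differed by 0.23 ± 0.30, less than the error of that gap. The p53 target miR-34a, also on chromosome 4 (chr4:150068473-150068494, plus strand), was likewise undetected at E11. It had 20.5 ± 5.0, 65.5 ± 6.9 and 159.3 ± 13.0 at E12, E14 and E16 and was 2.41-fold higher at E14 (1.27 ± 0.38). These 3 were the only ones of the 17 whose level was higher still at E16.

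The remaining 14 had E16 levels at least 2-fold below those of E14, a comparison that shares the E14 array. miR-494, of the Dlk1-Dio3 cluster (chr12:109715367-109715388, plus strand), differed most, with 231.2 ± 18.5 at E12 and 2308 ± 174 at E14, 7.51-fold higher (2.91 ± 0.16). Its signals were 272 ± 21 at E11 and 614.1 ± 46.7 at E16, so the E14 array stood above the 3 others. miR-1187 had 16.7 ± 4.8 and 133.1 ± 10.8 at E12 and E14 (2.59 ± 0.43). miR-574-5p had 45.8 ± 7.2 and 223.8 ± 17.3 (1.88 ± 0.25). Both are built of UGUGU repeats, as the sequences show. miR-1224 had 341.1 ± 27.3 at E12 and 1332 ± 105 at E14 (1.56 ± 0.16), against 386.5 ± 30.0 and 393.5 ± 31.4 at E11 and E16.

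Others among the 17 had E12 signals of 7.43, the lowest detected on that array, to 32.9. They were miR-3072* (2.03 ± 0.42), miR-466f-3p (1.97 ± 0.48), miR-125a-3p (1.91 ± 0.49), miR-483 (1.80 ± 0.46), miR-3470a (1.74 ± 0.32), miR-466i (1.72 ± 0.44) and miR-370 (1.63 ± 0.48). miR-1895 (1.47 ± 0.30), miR-2861 (1.27 ± 0.19) and miR-467f (1.17 ± 0.26) completed the list. Of the 17, 8 had a signal of at least 5 times its error on both arrays: miR-494, miR-574-5p, miR-31, miR-1224, miR-1895, miR-31*, miR-2861 and miR-467f. Just inside 2-fold lay miR-467f, miR-34a and miR-2861, and just outside let-7b (0.999), miR-141 (0.92) and miR-320 (0.86).

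**Figure D2:**
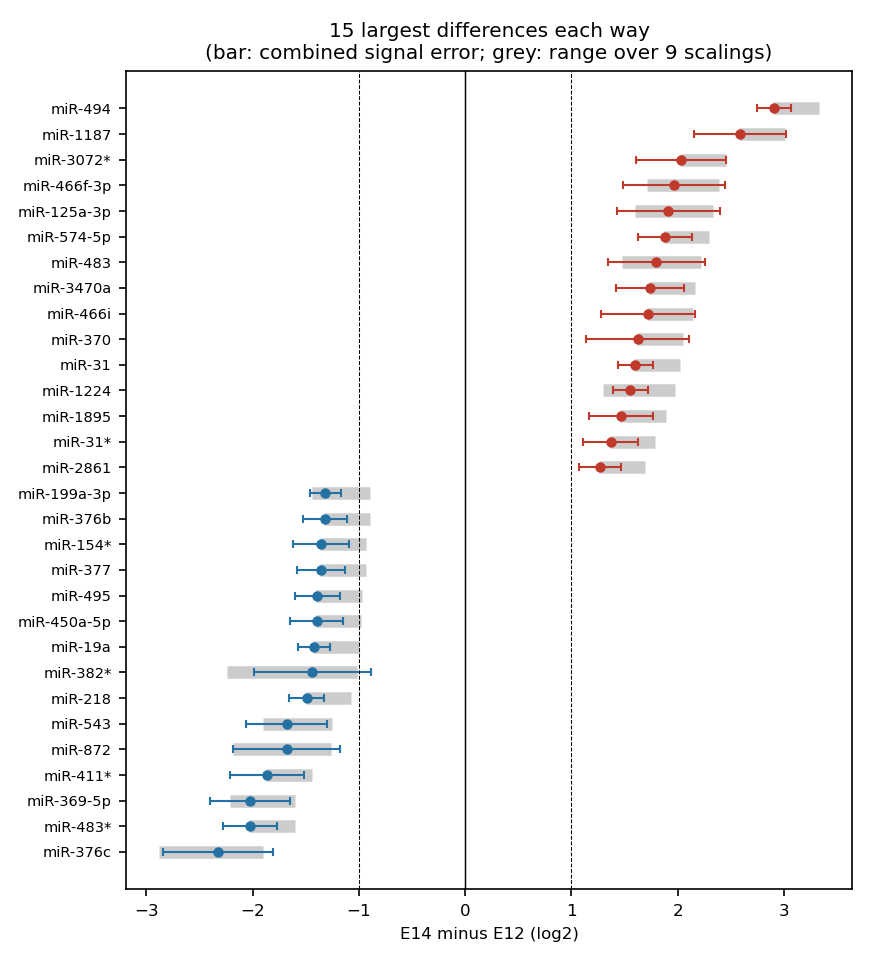
The 15 largest differences each way, as E14 minus E12 on the log2 scale (x axis), for named miRNAs (y axis) with 1 array per stage; points are the differences, error bars the combined signal errors, grey bars the range over 9 scalings and dashed lines 2-fold. The grey bars of the upper 15 stay beyond 2-fold, from miR-494 at 2.91 to miR-2861 at 1.27, while those of miR-450a-5p, miR-495, miR-377, miR-154*, miR-376b and miR-199a-3p reach inside it. Most of the alternative scalings shifted differences upward.

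Of the 7 epithelial miRNAs detected at both stages, 6 had a difference above 0 and 1, miR-203, below it, with 0 past 2-fold. Of all 201 miRNAs, 57 had a difference above 0, and 8.46% were at least 2-fold higher and 15.9% lower. In bulk RNA, a change in the number of cells of a type and a change in RNA per cell cannot be told apart. The median of the 7 epithelial miRNAs was 0.27, against -0.44 for all miRNAs. miR-205 had 1241 ± 90, 2190 ± 159, 3517 ± 254 and 5317 ± 386 at E11, E12, E14 and E16, a difference of 0.27 ± 0.15 from E12 to E14. miR-141 had 31.0 ± 5.5 at E12 and 77.9 ± 7.8 at E14 (0.92 ± 0.29) and was past 2-fold on the deposited signals (1.33). Of its relatives, miR-200c was at 0.57 ± 0.15, miR-200a at 0.50 ± 0.18, and miR-200b (0.15 ± 0.15) and miR-429 (0.03 ± 0.15) within their errors of 0. The 3 members with the seed AAUACUG, miR-200b, miR-200c and miR-429, thus spread from 0.03 to 0.57, and the 2 with AACACUG, miR-141 and miR-200a, from 0.50 to 0.92. miR-203, a miRNA of stratified epithelium, went the other way, from 119.6 ± 10.8 to 106.1 ± 9.2 (-0.58 ± 0.18), before the 724.5 ± 53.0 of E16.

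miR-875-5p was the miRNA of highest level detected at E14 and not at E12. It had 100.5 ± 6.5 at E14 and 386.8 ± 21.7 at E16, and its E14 level was at least 10.2-fold above the lowest detected at E12.

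The let-7 family, which accumulates as embryonic cells differentiate and shares the seed GAGGUAG with miR-98, had 0 of 9 members past 2-fold either way. Of all miRNAs, 8.46% were higher and 15.9% lower. Above the all-miRNA median of -0.44 lay 8 of the 9 members. The family's own median was -0.09, and turned to 0.32 on the deposited signals. The members spread widely for one seed. let-7b stood highest at 0.999 ± 0.153, from 248.7 ± 19.2 at E12 to 660.2 ± 48.0 at E14; it passed 2-fold under 7 of the 9 scalings and was at 1.41 on the deposited signals. let-7e stood lowest at -0.71 ± 0.15, from 881.2 ± 63.7 to 715.7 ± 51.6. let-7c was at 0.41 ± 0.15 and let-7d at 0.20 ± 0.15. let-7i (0.13 ± 0.15), let-7a (-0.09 ± 0.15), let-7f (-0.14 ± 0.16) and miR-98 (-0.15 ± 0.19) were within their errors of 0, and let-7g was at -0.34 ± 0.15. Near-identical members can bind each other's probes, and the share of such signal is not given by the arrays.

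The imprinted Dlk1-Dio3 cluster on chromosome 12 gave 15 of the 32 miRNAs lower at E14. This cluster is expressed from the maternal chromosome as a long series of miRNAs and is active in embryonic mesenchyme and neural tissue. Both arrays detected 31 of its 74 probes: past 2-fold, 15 of these lay below E12 and 2 above it, and the median difference was -0.996. The rates over all miRNAs were the 15.9% and 8.46% above. On the deposited signals 5 of 31 were lower, miR-376c, miR-369-5p, miR-411*, miR-543 and miR-382*, against 4.48% of all miRNAs. The median there was -0.59, against -0.03 for all miRNAs. Of these 5, miR-411* alone had a signal of at least 5 times its error on both arrays. Of the 31, 29 had a difference below 0 and below the all-miRNA median. The cluster's own summed signal was 3214 at E12 and 4285 at E14, with miR-494 at 231.2 and 2308. That of the mesenchymal miRNAs listed further on was 17138 and 11322, with miR-199a-3p at 9031 and 4824. The neural sum was 179.7 and 125.5. It held miR-137 at E12 alone (59.2), miR-212 at 80.9 and 89.9, and miR-128 at 39.7 and 35.6. The part of mesenchymal and neural cells in the cluster's differences was not tested.

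The members on the miR-379 to miR-410 side, hosted by Mirg, held 14 of the 15, with a median of -1.20 over 23. miR-376c went from 22.0 ± 3.6 at E12 to 5.83 ± 1.86 at E14, next to the lowest detected signal of 5.69 on that array (-2.33 ± 0.52). miR-369-5p went from 55.1 ± 7.6 to 17.97 ± 3.97 (-2.03 ± 0.38), and miR-411* from 56.3 ± 7.7 to 20.5 ± 4.1 (-1.87 ± 0.35). miR-543 and miR-495, whose last 12 bases are the same while their seeds differ, were at -1.68 ± 0.38 and -1.39 ± 0.21. miR-376a and miR-376b, which differ at 3 of 21 positions, were at -1.23 ± 0.30 and -1.32 ± 0.21. Further down the list came miR-382* (-1.44 ± 0.55), miR-377 (-1.36 ± 0.23), miR-154* (-1.35 ± 0.26), miR-380-3p (-1.21 ± 0.29), miR-409-3p (-1.20 ± 0.24), miR-410 (-1.17 ± 0.17) and miR-329 (-1.09 ± 0.16).

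Of the lower members on this side, miR-329 and miR-410 had the smallest errors of the difference. miR-329 had 207.4 ± 16.0, 242.3 ± 18.97, 150.9 ± 12.0 and 137.7 ± 11.7 at E11, E12, E14 and E16. miR-410 had 150.2 ± 11.7, 185.3 ± 14.6, 109.2 ± 9.2 and 118.2 ± 10.2. In both, the E11 and E12 signals lay above the E14 and E16 signals, before any scaling. miR-376a did not keep that order: it had 24.0 ± 4.2, 62.1 ± 7.9, 35.04 ± 5.63 and 125.5 ± 11.0, highest at E16. Just outside 2-fold lay miR-382 (-0.996) and miR-541 (-0.995), then miR-487b (-0.93 ± 0.29) and miR-379 (-0.93 ± 0.18).

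The side antisense to Rtl1 moved less far. Of 7 members detected at both stages, 1 was at least 2-fold lower, miR-433 (-1.15 ± 0.33), and the range was -1.15 to -0.55 around a median of -0.81. miR-127 had 383.4 ± 29.8 at E12 and 290.3 ± 22.5 at E14 (-0.81 ± 0.16), miR-434-3p 216.0 ± 17.2 and 146.1 ± 11.9 (-0.97 ± 0.16) and miR-431 87.6 ± 9.3 and 59.5 ± 6.9 (-0.97 ± 0.23). The other 3 were miR-337-3p (-0.80 ± 0.30), miR-337-5p (-0.76 ± 0.33) and miR-434-5p (-0.55 ± 0.43).

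Against these stood miR-494 and miR-370, the 2 members at least 2-fold higher. miR-370 (chr12:109618305-109618326) went from 15.0 ± 4.8 to 61.4 ± 6.6 and was back at 14.9 ± 4.4 at E16. miR-3072*, higher as well, maps just past miR-410 (chr12:109747893-109747914 against chr12:109743764-109743784) but was not on the list; it is named here after its value was seen. Detection changed for 7 further members. miR-409-5p (37.0 ± 6.9), miR-136 (20.01 ± 4.95) and miR-323-3p (15.9 ± 4.8) were detected at E12 and not at E14. miR-432 (14.9 ± 3.4), miR-381 (12.8 ± 3.8), miR-134 (6.43 ± 1.89) and miR-770-3p (5.69 ± 1.86) were detected at E14 and not at E12. The signals of miR-134 and miR-770-3p lay below the lowest detected at E12 (7.43).

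**Figure D3:**
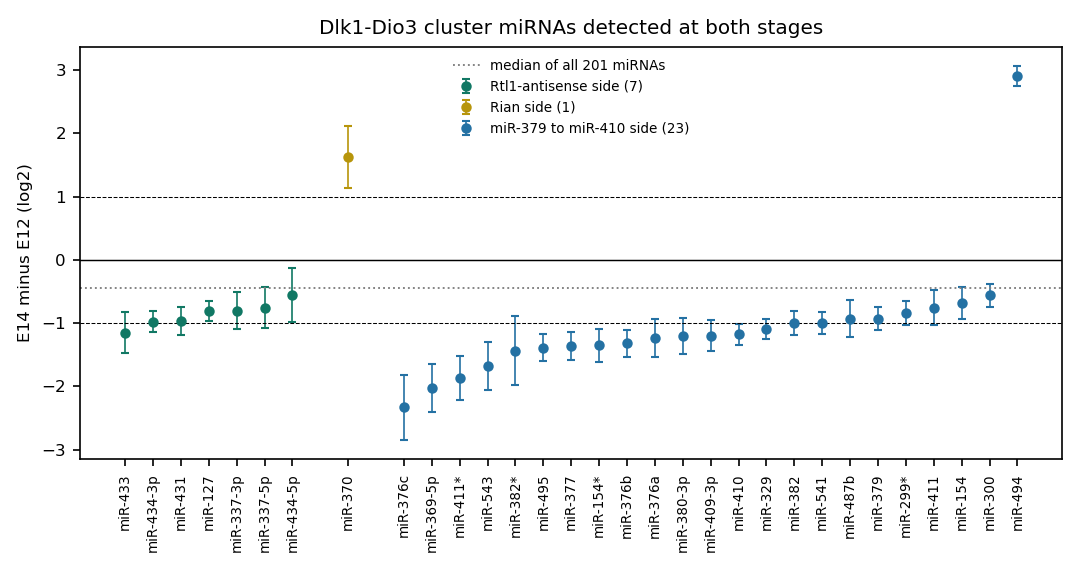
Difference E14 minus E12 on the log2 scale (y axis) for the 31 Dlk1-Dio3 cluster miRNAs detected on both arrays (x axis), coloured by side of the cluster, with bars for the combined signal error, dashed lines at 2-fold and a dotted line at the median of all 201 miRNAs (-0.44). The 29 members other than miR-370 and miR-494 lie below the dotted line, and miR-494 stands at 2.91.

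Outside the cluster, 4 of the 5 miR-130 and miR-301 probes were lower, against 15.9% of all miRNAs, around a median of -1.19; on the deposited signals 0 of 5 passed 2-fold. The seed AGUGCAA is shared by miR-130a, miR-130b and miR-301a. The lowest of the 4, miR-130b* (-1.28 ± 0.32), is the other arm of the miR-130b precursor and has a different seed. miR-301a had 537.1 ± 43.3 at E12 and 311.1 ± 25.3 at E14 (-1.20 ± 0.17), miR-301b was at -1.19 ± 0.19 and miR-130b at -1.03 ± 0.15. miR-130a, the brightest of them, was at -0.57 ± 0.15 with 2274 ± 162 and 2039 ± 145.

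Among 13 miRNAs of the miR-17-92 cluster, known as a driver of proliferation, and of its paralogous clusters, miR-19a alone passed 2-fold. It was lower, as were 15.9% of all miRNAs. The median of the 13 was -0.61, and -0.20 on the deposited signals. miR-19a had 486.7 ± 34.95, 597.3 ± 43.0, 295.7 ± 21.7 and 569.6 ± 41.0 at E11, E12, E14 and E16, so the E14 signal was the lowest of the 4 (-1.42 ± 0.15). Its cluster neighbour miR-19b differs from it at 1 of 23 bases and was at -0.91 ± 0.15, with 2377 ± 177 at E12 and 1679 ± 124 at E14. The others of highest level, miR-20a (-0.63 ± 0.15), miR-25 (-0.62 ± 0.15) and miR-92a (-0.52 ± 0.16), stayed nearer the all-miRNA median.

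Single miRNAs lower at E14 were spread over other loci. miR-218, hosted by the Slit genes that encode axon guidance ligands, went from 227.2 ± 17.6 at E12 to 107.3 ± 9.2 at E14 and to 247.0 ± 18.7 at E16 (-1.49 ± 0.17). miR-335-5p, hosted by the imprinted Mest gene, had 512.3 ± 44.6, 279.5 ± 24.2 and 518.5 ± 44.7 at the same stages (-1.28 ± 0.18). miR-872 went from 32.5 ± 6.8 to 13.5 ± 3.8 (-1.68 ± 0.51), and miR-101a, known to target Ezh2, was at -1.19 ± 0.36. Of the 32 lower miRNAs, 31 were detected at E16, and 14 of those had a higher level at E16 than at E14.

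Mesenchymal miRNAs lay below the all-miRNA median in 7 of 8 cases, with 1 of 8 at least 2-fold lower, against 15.9% of all miRNAs, and a median of -0.65 (-0.24 on the deposited signals). miR-199a-3p, among the brightest entries of both arrays, had 5055 ± 367, 9031 ± 659, 4824 ± 352 and 5760 ± 422 at E11, E12, E14 and E16. It was 2.49-fold lower at E14 than at E12 (-1.31 ± 0.15; -0.90 on the deposited signals). miR-214 and miR-214*, from the Dnm3os transcript that also yields miR-199a, lay just outside 2-fold (-0.999 ± 0.155 and -0.996 ± 0.235). miR-199a-5p was at -0.66 ± 0.16, miR-140 (cartilage) at -0.64 ± 0.28 and miR-143 at -0.08 ± 0.25.

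Other families differed less. All 5 miRNAs detected from the clusters of miR-23, miR-24 and miR-27 lay above the all-miRNA median, from 0.12 to 0.47 (miR-27a). The miR-30, miR-181 and miR-15 families had 0 members past 2-fold, where 8.46% of all miRNAs were higher and 15.9% lower. The family medians were -0.25, -0.18 and -0.40, which turned to 0.16, 0.23 and 0.01 on the deposited signals. miR-135a was detected at E12 alone of the 4 arrays (22.7 ± 5.1). Its scaled level there was 5.31-fold above the lowest detected at E14, a nominal bound, since a probe with a larger error can go undetected above that lowest level. miR-135b had 65.2 ± 7.9 at E12 and 51.6 ± 6.2 at E14 (-0.75 ± 0.25). Of the miR-29 family, known to target collagens, miR-29a alone was detected at E14 (13.0 ± 3.8) and no member at E12. The hypoxia-induced miR-210 went from 83.2 ± 8.8 to 162.1 ± 12.8 (0.55 ± 0.19).

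**Figure D4:**
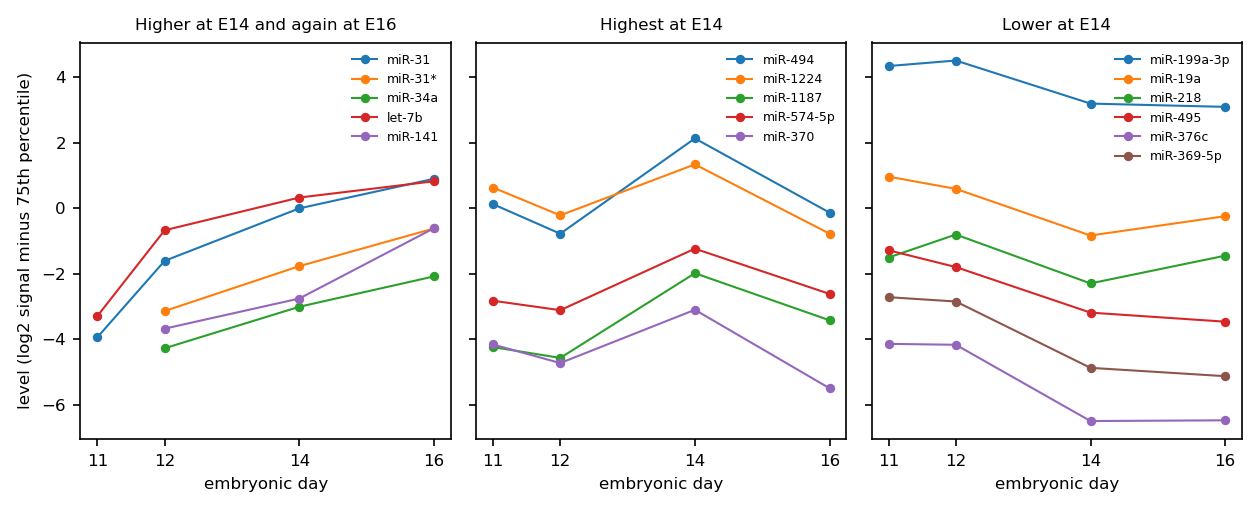
Level (y axis, log2 signal minus the array's 75th percentile) at embryonic days 11, 12, 14 and 16 (x axis) for named miRNAs, 1 array per stage, with no point where a miRNA was not detected. miR-31, miR-31*, miR-34a, let-7b and miR-141 climb at each step shown, miR-494, miR-1224, miR-1187, miR-574-5p and miR-370 are highest at E14, and miR-218 and miR-19a are lowest at E14.

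Both arms of a precursor were detected at both stages in 20 cases, and the arms differed by less than 2 times the error of their gap in 15. In 3 the gap was 2-fold or more. miR-483, from an Igf2 intron on chromosome 7 (chr7:142654932-142654952, minus strand), went from 8.04 ± 2.40 at E12 to 37.2 ± 4.05 at E14 (1.80 ± 0.46), while its other arm miR-483* went from 106.1 ± 11.1 to 34.6 ± 4.9 (-2.03 ± 0.26). The gap was 3.83 ± 0.52. miR-125a-3p went from 7.43 ± 2.38 to 37.2 ± 4.0 (1.91 ± 0.49) and miR-125a-5p from 640.7 ± 47.7 to 455.4 ± 33.9 (-0.90 ± 0.15), a gap of 2.81 ± 0.51. In both precursors the arm higher at E14 was near the lowest detected signal at E12. miR-483 had 32.4 ± 3.5 at E11 and 7.24 ± 2.20 at E16, so its E11 signal was near that of E14. miR-125a-3p had 7.69 ± 1.87 at E11 and 8.50 ± 2.24 at E16, and E14 stood alone. miR-411 and miR-411* differed by 1.11 ± 0.44, with both arms below 0.

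**Figure D5:**
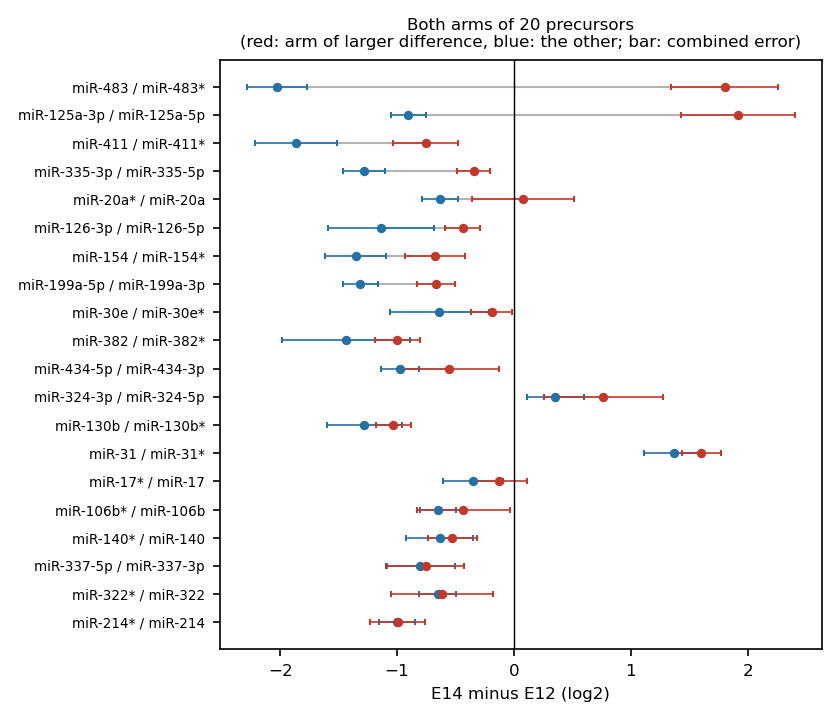
Difference E14 minus E12 on the log2 scale (x axis) for both arms of 20 precursors (y axis), 1 array per stage; red points are the arm of larger difference, blue the other, and bars the combined signal error. The arms of miR-483 and miR-125a lie on opposite sides of 0, and those of miR-214, miR-322 and miR-31 overlap.

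Detection changed more often toward E14. Of 683 miRNAs outside the entries read apart, 37 were detected at E14 and not at E12 (5.42%) and 9 at E12 and not at E14 (1.32%). The 37 were dim, with a median signal of 16.4 and a range of 5.69 to 100.5, and 16 of them were detected on no other array. The lowest detected signal was lower at E14 (5.69) than at E12 (7.43), which favours detection at E14. Some of the 37 had scaled levels below the lowest detected at E12, down to 0.576 of it. Such miRNAs could go undetected at E12 without a change in level. After miR-875-5p came miR-3473 (64.7 ± 7.05, at least 6.56-fold), miR-671-5p (49.6 ± 4.4, at least 5.02-fold), miR-1906 (49.4 ± 6.1), miR-1897-3p (48.9 ± 6.1), miR-697 (46.2 ± 4.2), miR-221 (40.8 ± 5.8) and miR-1982* (38.5 ± 5.7). Of these miR-221, a miRNA known to repress Kit and the cell cycle inhibitor Cdkn1b, was brighter at E16 (75.3 ± 8.0), and miR-671-5p dimmer (7.60 ± 2.21). The neural miR-137 led the 9 of E12, with 59.2 ± 7.6 there and at least 13.8-fold less at E14, and was detected again at E16 (47.5 ± 6.8). It was followed by miR-409-5p, miR-135a, miR-136, miR-467e, miR-323-3p, miR-362-3p and miR-340-3p. Each bound sets the scaled level beside the dimmest detected one on the opposite array, and is nominal, since a probe with a larger error can go undetected above it.

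Every detected entry read apart had a higher signal at E14 than at E12. Both arrays detected 11 of these 13, of which 10 passed 2-fold upward, against 8.46% of the other miRNAs detected at both stages. On the deposited signals all 11 passed it. The scaled differences were 0.73 to 3.39, with a median of 2.38. Only miR-2137 of these 11 has a miRNA gene in the RefSeq table. miR-2141 had 3914 ± 298, 3841 ± 293, 26626 ± 2060 and 6546 ± 505 at E11, E12, E14 and E16. miR-2140 had 1416 ± 104, 1189 ± 87, 13567 ± 995 and 2696 ± 201, and miR-689 79.3 ± 7.6, 75.7 ± 8.6, 746.7 ± 54.9 and 217.5 ± 17.0. In each of the 3 the E14 array stood above the others. Together the entries gave 5.74% of the summed miRNA signal at E12, 28.2% at E14, and 7.23% and 8.24% at E11 and E16.

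A control feature also had its highest signal at E14. Of 22 control features, 6 had a signal on all arrays, and 5 of these had ratios of E14 to E12 between 0.982 and 1.16. The feature named hur_6 had 40693 at E12 and 109779 at E14, a ratio of 2.70, with 60407 at E11 and 53994 at E16; the labels do not say what it measures. Its part in the values of the entries read apart, or of the 14 miRNAs that were higher at E14 and lower again at E16, was not tested. The 4 entries known as tRNA fragments, such as miR-1937b and miR-720, differed by -0.49 to -0.25, and their median was 0.02 on the deposited signals.

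The higher and lower miRNAs also differed in base composition. A mature sequence was matched for 15 of the 17 higher and 27 of the 32 lower ones. Guanine made up a median of 36.4% of the bases in the former (range 0% to 68.4%) and 18.2% in the latter (4.55% to 50%), and guanine with cytosine 54.5% and 38.1%. The run GGGG was in 3 of the 15 and 0 of the 27, against 11.2% of 1679 mature mouse sequences. The repeat UGUGU was in 2 and 1, against 3.63% of those sequences. Only the strand of the mature miRNA was read. The check is void for the miRNAs within 2-fold, of which 74.3% had a matched sequence, and for all 201 detected at both stages (77.1%). GGGG was in 6 of the 155 sequences matched among these 201. The 1679 sequences also hold those of miRNAs not detected here. This is a description of these miRNAs, whose part in the differences was not tested.

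For most other cell types, few markers were detected. Neither array detected any of 8 muscle probes, 9 Hox cluster probes or 22 probes for miRNAs of pluripotent cells (the miR-290 and miR-302 groups). Of 3 erythroid probes miR-451 alone was detected, with 421.8 ± 31.2 at E12 and 665.3 ± 48.3 at E14 (0.25 ± 0.15), and of 6 leukocyte probes miR-223 alone (17.6 ± 4.9 and 32.6 ± 5.6). The endothelial pair, miR-126-3p (-0.44 ± 0.15) and miR-126-5p (-1.13 ± 0.45), summed to 445.5 and 427.0. Of 13 neural probes 3 were detected at E12 and 2 at E14, among them miR-128 (-0.57 ± 0.34) and miR-212 (-0.26 ± 0.22), and the brain-defining miR-124 and miR-9 at neither. The miR-183, miR-96 and miR-182 cluster, listed for sensory ganglion, had 3 of 4 probes detected at E12 and 4 at E14. Its summed signal was 841.9 and 868.5, with differences of -0.54 to -0.11. The part of these cells in the differences was not tested.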

How the data were processed

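Each stage has 1 Agilent microRNA array of 1 colour. Total RNA (100 ng) was treated with phosphatase and labelled with pCp-Cy3, per the labels' protocols. Per the file headers, the deposited intensity is the total gene signal of a miRNA, with its error and a detection flag; an undetected feature is written as 0.1. How background was handled: not given in the sources used here. The authors' series value table is a linear intensity too; quantile normalization of the signals gave back all its detected values to within 0.1%, with no centring, and it served as an alternative.

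Control features were left out. Levels, differences and the 2-fold rule are as defined in the report (Python 3.11.15, pandas 2.3.3, numpy 2.4.6, matplotlib 3.10.9). Scaling was tested on simulated data with equal numbers of rises and falls. That test does not cover a joint rise such as that of the entries read apart. The single array per stage limits the precision. Alternatives were 8 other scalings, a signal of at least 5 times its error, a difference of over 2 times its error, and counting the entries read apart. Named were the 15 largest differences each way, the 8 of highest level detected at 1 stage, the 10 brightest per array, up to 4 members per list, and all detected epithelial, let-7 and Dlk1-Dio3 members; the text gives those the results turn on. Members and lists were chosen with earlier results of these data known. Arms of older names were matched by hand to RefSeq names (GRCm38.p6).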

Additional observations from a re-analysis of the deposited data

Results flagged for a closer look

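The control feature hur_6 lies outside the miRNA measurement and had a signal of 109779 on the E14 array. It had 60407, 40693 and 53994 at E11, E12 and E16, while the other 5 control features with a signal differed by ratios of 0.982 to 1.16 between E12 and E14. Its part in any miRNA difference was not tested.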

How the results depend on the processing

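The 17 higher miRNAs became 8 when a signal of at least 5 times its error was required, and 27 with the entries read apart counted; under the other scalings the count was 17 to 25. The 32 lower miRNAs became 18 with median scaling, 9 on the deposited signals, 9 with the percentile taken without the entries read apart and 12 with the shift of the control features, an alternative added after seeing the data; elsewhere it was 24 to 36. The median difference of -0.44 became -0.20, -0.0282, -0.0161 and -0.0818 under those 4 scalings. All 45 named miRNAs past 2-fold kept their sign under the 9 scalings, whereas 46 of the 201 miRNAs, nearer to 0, turned sign under at least 1. Most alternative scalings shifted differences upward, so a kept sign says little for the higher miRNAs. The counts detected at 1 stage alone were 37 and 9, and 39 and 7 with the stricter detection. No paired analysis was possible because each stage has 1 array.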

Other observations

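A group of neighbouring miRNA genes on chromosome X, known to be transcribed together and to restrain the cell cycle, was below 0 at E14 in each of its 6 members detected at both stages, a sign shared by 144 of all 201 miRNAs. miR-450a-5p went from 84.1 ± 8.8 at E12 to 42.4 ± 5.9 at E14 (-1.40 ± 0.25), and miR-542-3p from 45.8 ± 7.2 to 25.2 ± 5.3 (-1.27 ± 0.38). Further along, miR-322 was at -0.65 ± 0.15, miR-322* at -0.62 ± 0.43, miR-503 at -0.40 ± 0.36 and miR-351 at -0.33 ± 0.30. The last 2 lay above the all-miRNA median of -0.44, and on the deposited signals at 0.01 (miR-503) and 0.08 (miR-351). There miR-450a-5p was at -0.99, miR-542-3p at -0.86, miR-322 at -0.24 and miR-322* at -0.21, so no member passed 2-fold. The group was chosen after its values were seen.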
